A study of Mus musculus with 8 samples.

Results

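The genes described here carry out mitotic entry, the spindle checkpoint, chromosome segregation and cytokinesis. The motor kinesins are kept apart from them, except Cenpe, which is listed with the kinetochore genes. They were listed by symbol and role, with earlier results of these data known, and 58 genes were listed among 22180 genes that have a transcript cluster of their own on the array. A transcript cluster is the set of probes that reads 1 gene. Of the 58 genes, 55 had such a cluster, each of them exactly 1. Ccnf and Ncapg were read only by clusters shared with another gene, and Ccnb1 had no listed cluster. These 3 were not analysed on the arrays, but their promoters are among those searched below.

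Mouse natural killer (NK) cells were compared in 4 groups of 2 biological replicates on 8 Affymetrix Mouse Gene 2.0 ST arrays. The marrow of every group had been cleared of T cells by selection for CD90, and the activated cells were those that adhered in culture. Day 0 cells were freshly isolated and are called naïve in their titles. Day 4 cells had received interleukin-2 (IL-2) at 1000 IU/mL, and day 9 cells had received it again after 4 days. The last group was day 9 cells that also received KU55933, an inhibitor of the DNA damage kinase ATM, at 7.5 µM from day 4. A vehicle control is named in the protocol, and whether the day 9 cells without KU55933 received it is not given in the labels. Mouse strain, age and sex are not given in the labels used here, nor whether the replicates came from separate animals, so p-values measure only the spread between these samples.

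A dividing cell copies its DNA and then enters mitosis when cyclin-dependent kinase 1 is activated by its cyclins. Chromosomes are condensed, kinetochores assembled on centromeres are captured by spindle microtubules, and a checkpoint holds back anaphase until all of them are attached. The anaphase-promoting complex then releases the sister chromatids, and a contractile ring divides the cell. NK cells of a naïve mouse are mostly quiescent, and IL-2 is a growth factor that drives them to divide.

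The median log2 signal of an array over all its clusters ran from 3.66 to 3.91. Across the 13998 genes tested, as defined below, replicate arrays correlated with Pearson r from 0.976 (day 0) to 0.994 (day 4). All 12 listed markers of NK cells lay at or above the array median on all 8 arrays. So did 8 of 8 T cell markers, 5 of 5 megakaryocyte markers and 6 of 7 macrophage markers on both day 0 arrays, so that this count does not set NK cells apart from other marrow cells. A gene was tested if it reached the array median on at least 2 arrays, which 13998 genes did. All 55 measured division genes passed, 49 of them on all 8 arrays. Cenpk and Hmmr passed only through the 2 day 4 arrays, so a difference at day 4 was built into their passing. Differences are given as log2 difference ± SE from limma, with p-values adjusted by Benjamini-Hochberg over the 13998 genes, and a gene was called at an adjusted p below 0.05.

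The division genes rose together at day 4, and their mean was back slightly below its starting level at day 9. The mean log2 signal of the 55 genes was 5.27 and 5.34 on the day 0 arrays, 8.19 and 8.12 on the day 4 arrays, 4.96 and 4.97 on the day 9 arrays, and 5.36 and 5.24 on the KU55933 arrays. Both day 4 arrays thus stood far above the other 6, which lay within a narrow band. At day 4, 54 of the 55 genes were called higher than at day 0 and 1 lower, where 37.5% of all tested genes were called higher and 22.4% lower. The median difference of the 55 genes was 2.94, against 0.08 over all tested genes, and 53 of them differed by more than 1, that is, more than 2-fold. On 54 genes both day 4 arrays lay above both day 0 arrays, which held for 45.0% of all tested genes. In bulk RNA, a change in the number of cycling cells and a change in RNA per cell cannot be told apart.

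**Figure D1:**
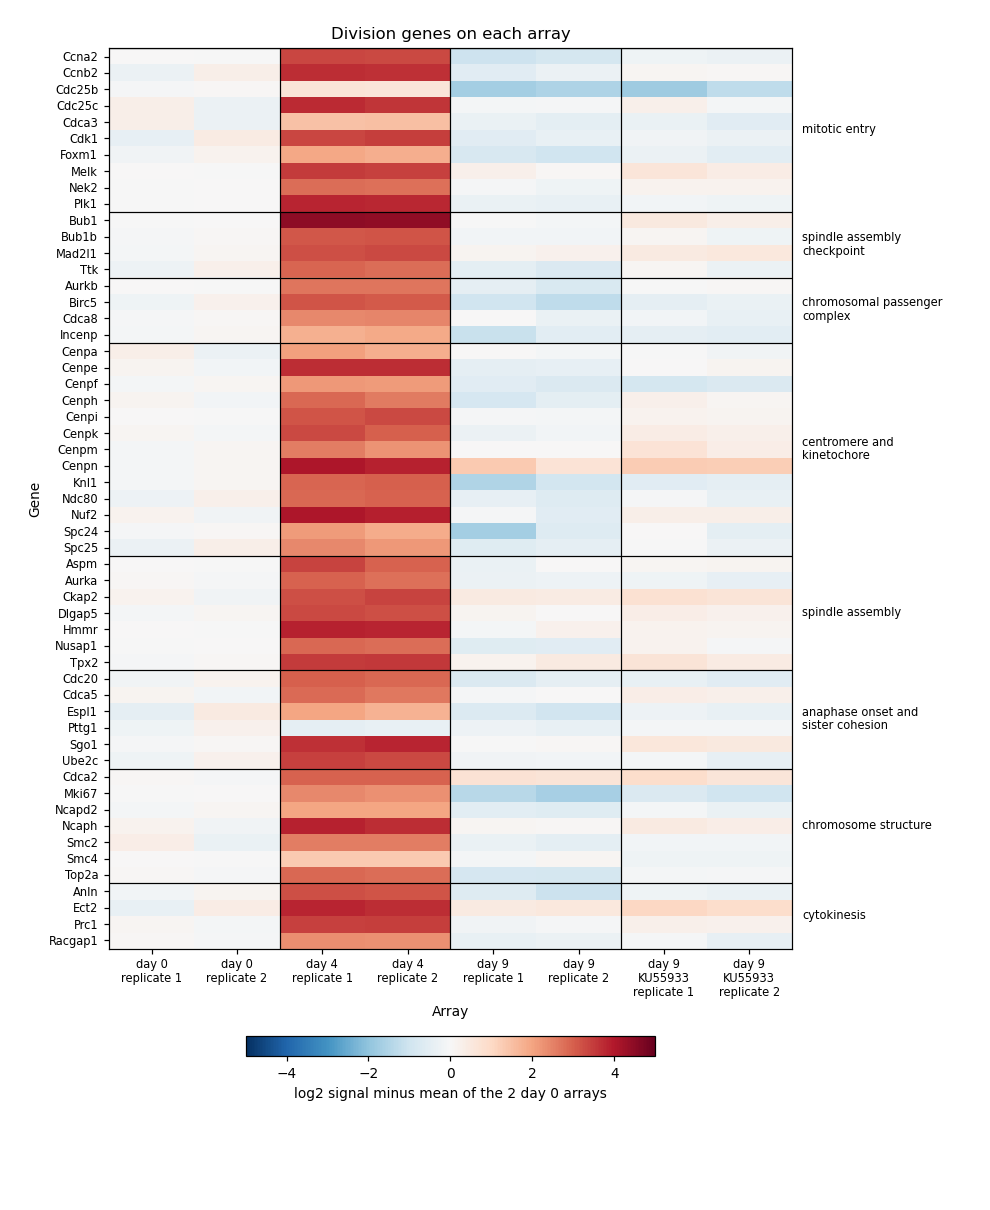
Log2 signal of each of the 55 division genes (rows, grouped by role) on each of the 8 arrays (columns), minus the mean of the 2 day 0 arrays. The 2 day 4 columns are high for every gene but Pttg1, which differed by -0.40, and most genes of the day 9 columns lie close to or below day 0, with Cenpn, Cdca2 and Ckap2 called above it.

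The promoters of these genes hold 2 short elements more often than other promoters do. The cell cycle homology region (CHR) was searched as TTTGAA or TTTAAA and the CCAAT box as CCAAT, on both strands, in RefSeq windows of 300 bases that run from 250 bases before the start to 50 after it (mouse build GRCm38.p6). In mammalian cells the CHR is known as a binding site of the DREAM and MYB-MuvB complexes, and the CCAAT box as the binding site of NF-Y. Windows were found for 48 of the 58 genes, 52 windows in all. Ccnb1, Ccnf and Ncapg, which were not analysed on the arrays, are among the 48. A CHR lay in 69.2% of them, against 27.6% of all 32851 windows and 19.7% of the windows of genes tested on the arrays. A CCAAT box lay in 78.8%, against 37.4% and 36.9%, and both elements lay in 59.6%, against 10.7% and 7.6%. A match says only that the letters are present.

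The 5 promoters shown are those with both elements whose genes had the largest day 4 differences, with the matches in capitals. A match on the other strand appears as TTCAAA or ATTGG, and TTTAAA reads the same on both strands. Cenpn lies at chr8:116921490-116921789 on the plus strand, Hmmr at chr11:40733388-40733687 on the minus strand, Plk1 at chr7:122159185-122159484 on the plus strand, Ect2 at chr3:27153805-27154104 on the minus strand and Cenpe at chr3:135212313-135212612 on the plus strand. Each is written in the direction of its gene.
Cenpn: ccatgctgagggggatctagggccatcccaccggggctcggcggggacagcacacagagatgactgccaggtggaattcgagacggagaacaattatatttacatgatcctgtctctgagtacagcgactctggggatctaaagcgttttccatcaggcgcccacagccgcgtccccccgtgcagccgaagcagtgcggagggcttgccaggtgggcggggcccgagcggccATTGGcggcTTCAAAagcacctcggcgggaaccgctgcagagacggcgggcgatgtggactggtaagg
Hmmr: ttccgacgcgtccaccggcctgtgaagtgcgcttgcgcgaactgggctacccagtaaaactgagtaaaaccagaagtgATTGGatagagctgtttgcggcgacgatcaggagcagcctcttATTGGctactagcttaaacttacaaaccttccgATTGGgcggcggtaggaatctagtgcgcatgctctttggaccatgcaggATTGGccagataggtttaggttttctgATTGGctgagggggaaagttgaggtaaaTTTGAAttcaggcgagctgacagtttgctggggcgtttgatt
Plk1: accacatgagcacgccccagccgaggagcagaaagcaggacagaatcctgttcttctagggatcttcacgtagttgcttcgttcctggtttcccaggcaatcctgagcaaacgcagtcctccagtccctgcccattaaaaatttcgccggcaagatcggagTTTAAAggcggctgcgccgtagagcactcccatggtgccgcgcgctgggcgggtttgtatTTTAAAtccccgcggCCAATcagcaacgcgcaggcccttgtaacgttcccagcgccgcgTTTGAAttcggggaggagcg
Ect2: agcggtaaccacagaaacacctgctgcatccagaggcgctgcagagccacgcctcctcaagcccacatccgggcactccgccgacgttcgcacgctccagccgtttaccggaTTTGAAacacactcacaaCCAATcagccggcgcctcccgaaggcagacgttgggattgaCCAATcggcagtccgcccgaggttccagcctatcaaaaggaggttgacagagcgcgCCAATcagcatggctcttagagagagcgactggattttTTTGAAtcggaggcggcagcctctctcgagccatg
Cenpe: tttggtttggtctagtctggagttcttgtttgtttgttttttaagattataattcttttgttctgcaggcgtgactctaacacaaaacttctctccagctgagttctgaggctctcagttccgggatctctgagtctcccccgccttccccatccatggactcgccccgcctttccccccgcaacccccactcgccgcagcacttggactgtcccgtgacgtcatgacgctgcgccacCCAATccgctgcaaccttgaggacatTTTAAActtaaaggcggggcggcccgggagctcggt
In all 5 a CHR lies close to the start with a CCAAT box upstream of it. The first base of that CHR is at -9 in Cenpn, 9 in Hmmr, 31 in Plk1, 16 in Ect2 and 15 in Cenpe, counted from the start. The other Plk1 matches, at -89 and -29, lie upstream of its only CCAAT box at -14. The Hmmr window holds 5 CCAAT boxes and the Ect2 window 3, while the Plk1 window holds 3 CHR matches. Over the 52 windows, 70.4% of 54 CHR matches lay within 50 bases of the start, against 25.1% of 11715 matches over all windows. CCAAT boxes lay farther upstream, at a median of -69.5 against -14.5 for the CHR, and 57.0% of them lay from 120 to 20 bases before the start, against 45.0% over all windows. In 1 window a CHR and a CCAAT match overlapped. Several windows were found for 3 genes, and a site in overlapping windows of a gene, as in Ect2, counts at more than 1 position. Matches of a gene at the same position were counted once in the division gene windows, but not over all windows.

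**Figure D2:**
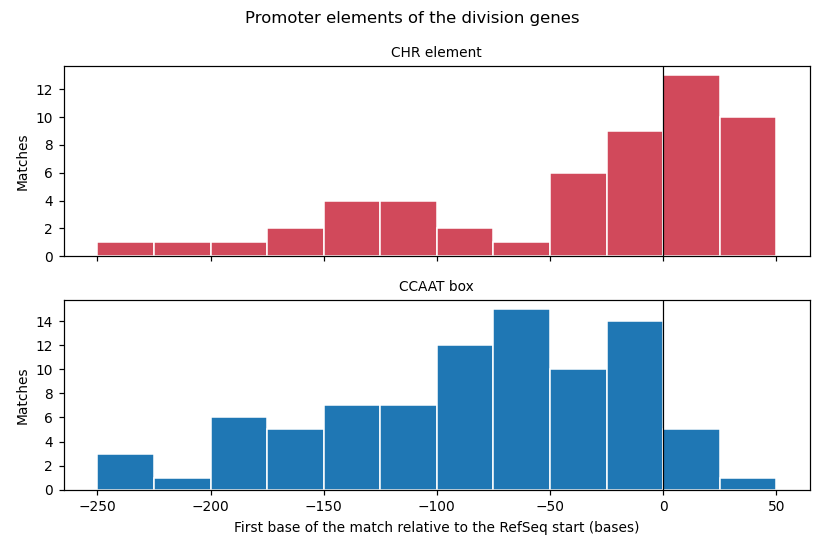
Positions of the 54 CHR matches (top) and 86 CCAAT matches (bottom) in the 52 promoter windows of the division genes, in bins of 25 bases from the RefSeq start (line at 0), with the number of matches on the vertical axis. CHR matches gather around the start (median -14.5) and CCAAT boxes upstream of it (median -69.5). Matches of a gene at the same position are counted once.

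Of the genes for entry into mitosis 10 were measured, and all 10 rose at day 4 with a median difference of 3.36. Cdk1, the kinase that triggers mitosis, read 5.12 and 5.90 on day 0, 8.84 and 8.96 on day 4, 4.94 and 5.15 on day 9, and 5.34 and 5.22 with KU55933. Its cyclin partner Ccnb2 read 5.34 and 5.91 on day 0, 9.30 and 9.29 on day 4, 5.07 and 5.35 on day 9, and 5.74 and 5.70 with KU55933. Ccna2, a cyclin of S phase and early mitosis, read 6.68 and 6.67 on day 0, 10.02 and 9.98 on day 4, 5.66 and 5.78 on day 9, and 6.48 and 6.39 with KU55933. Each of these genes was high on both day 4 arrays only, at differences of 3.40 ± 0.23, 3.67 ± 0.19 and 3.32 ± 0.11. On day 9 Ccna2 lay below both day 0 arrays and fell by 0.96 ± 0.11 (adjusted p = 0.000141), whereas the arrays of both days overlapped for Cdk1 and Ccnb2.

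Polo-like kinase Plk1, which acts from mitotic entry to cytokinesis, read 5.97 and 5.99 on day 0, 9.79 and 9.77 on day 4, 5.64 and 5.63 on day 9, and 5.84 and 5.76 with KU55933. Foxm1, a transcription factor for late cell cycle genes, read 4.65 and 4.97 on day 0, 6.76 and 6.63 on day 4, 4.00 and 3.81 on day 9, and 4.50 and 4.30 with KU55933. Both genes were above day 0 on both day 4 arrays and below it on both day 9 arrays. Plk1 rose by 3.79 ± 0.10 (adjusted p = 6.17e-07), about 13.9-fold, and Foxm1 by 1.88 ± 0.15. The phosphatases that activate Cdk1 moved unequally. Cdc25c rose by 3.67 ± 0.20, taken as a lower bound because its day 0 arrays were below the array median. Cdc25b read 6.03 and 6.11 on day 0, 6.71 and 6.68 on day 4, 4.38 and 4.54 on day 9, and 4.30 and 4.79 with KU55933, so that it was a little higher on day 4 and low on all 4 day 9 arrays. Its rise of 0.63 ± 0.17 (adjusted p = 0.0122) was not called without day 4 replicate 1 (adjusted p = 0.0613) or replicate 2 (adjusted p = 0.0525). The kinases Melk and Nek2 rose by 3.46 and 2.78, and Cdca3, which promotes breakdown of the Cdk1 inhibitor Wee1, rose by 1.48.

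All 4 spindle assembly checkpoint genes rose at day 4, with a median difference of 3.18. Bub1, a checkpoint kinase at kinetochores, read 4.08 and 4.13 on day 0, 8.60 and 8.53 on day 4, 4.10 and 4.02 on day 9, and 4.58 and 4.41 with KU55933. Its day 4 difference of 4.45 ± 0.11 (adjusted p = 6.17e-07), about 21.9-fold, was the largest measured among the 55 genes, and its day 9 and day 0 arrays overlapped. Bub1b, a part of the complex that inhibits the anaphase-promoting complex, read 4.69 and 4.81 on day 0, 7.85 and 7.89 on day 4, 4.61 and 4.60 on day 9, and 4.83 and 4.55 with KU55933. Mad2l1, another part of that complex, read 5.37 and 5.54 on day 0, 8.67 and 8.74 on day 4, 5.58 and 5.66 on day 9, and 5.90 and 5.99 with KU55933. Ttk, the kinase that starts checkpoint signalling, read 4.52 and 5.03 on day 0, 7.67 and 7.56 on day 4, 4.28 and 4.05 on day 9, and 4.89 and 4.48 with KU55933. The 3 genes rose by 3.12, 3.25 and 2.85, and Ttk alone was called between day 9 and day 0, where it fell by 0.61 ± 0.20 (adjusted p = 0.0343).

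All 4 genes of the chromosomal passenger complex, which corrects faulty attachments and guides cytokinesis, rose with a median of 2.54. Its kinase Aurkb read 5.73 and 5.68 on day 0, 8.37 and 8.37 on day 4, 5.25 and 4.94 on day 9, and 5.69 and 5.76 with KU55933. Birc5 (survivin), which brings the complex to centromeres, read 4.24 and 4.70 on day 0, 7.61 and 7.53 on day 4, 3.45 and 3.18 on day 9, and 4.02 and 4.13 with KU55933. Both genes were high on day 4 and lay below both day 0 arrays on day 9. They rose by 2.67 ± 0.13 and 3.10 ± 0.17 and at day 9 stood lower than day 0 by 0.61 ± 0.13 (adjusted p = 0.00409) and 1.15 ± 0.17 (adjusted p = 0.0007). Birc5 was below the array median on both day 9 arrays, so its fall is a lower bound. The scaffold Incenp rose by 1.82 and fell below day 0 by 0.82 at day 9, and Cdca8 (borealin) rose by 2.41, with its day 9 arrays overlapping day 0.

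The 13 centromere and kinetochore genes all rose at day 4, by 1.94 to 3.95 with a median of 2.92. Cenpa, the histone variant that marks centromeres, read 7.06 and 6.49 on day 0, 8.83 and 8.60 on day 4, 6.78 and 6.66 on day 9, and 6.75 and 6.62 with KU55933. Cenpe, a kinetochore motor that lines up chromosomes, read 5.43 and 5.19 on day 0, 9.01 and 9.00 on day 4, 4.84 and 4.89 on day 9, and 5.34 and 5.46 with KU55933. On both genes the day 4 arrays alone were high, at 1.94 ± 0.19 and 3.70 ± 0.12. Ndc80, the outer kinetochore subunit that binds microtubules, read 5.81 and 6.31 on day 0, 8.95 and 9.01 on day 4, 5.66 and 5.43 on day 9, and 6.00 and 5.70 with KU55933. Knl1, the kinetochore scaffold for Bub1, read 5.72 and 5.95 on day 0, 8.75 and 8.81 on day 4, 4.32 and 4.90 on day 9, and 5.28 and 5.38 with KU55933. Knl1 was clearly lower on day 9 than on day 0, by 1.22 ± 0.19 (adjusted p = 0.000834), and Ndc80 by 0.52 ± 0.19 (adjusted p = 0.0468).

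Nuf2 and Cenpn had the next largest measured day 4 differences after Bub1, an order that is not fixed because those of Hmmr, Sgo1 and Cdc25c are lower bounds. Nuf2, a partner of Ndc80, read 5.49 and 5.14 on day 0, 9.34 and 9.20 on day 4, 5.24 and 4.76 on day 9, and 5.60 and 5.61 with KU55933. Cenpn, which recognises Cenpa nucleosomes, read 4.14 and 4.31 on day 0, 8.25 and 8.06 on day 4, 5.52 and 4.90 on day 9, and 5.50 and 5.47 with KU55933. Nuf2 returned to overlap with day 0, whereas Cenpn stayed above both day 0 arrays in every later group. Cenpn was higher than day 0 by 0.99 ± 0.20 at day 9 (adjusted p = 0.00337) and by 1.26 ± 0.20 with KU55933 (adjusted p = 0.000886). Spc24, another Ndc80 complex subunit, had unlike day 9 replicates and read 5.67 and 5.75 on day 0, 7.84 and 7.54 on day 4, 4.00 and 5.07 on day 9, and 5.74 and 5.22 with KU55933. The other members rose by 2.15 (Cenpf), 2.28 (Spc25), 2.40 (Cenpm), 2.74 (Cenph), 3.14 (Cenpk) and 3.22 (Cenpi), and Cenpk's rise is a lower bound.

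All 7 spindle assembly genes rose with a median of 3.27. Aurka, the centrosomal kinase of spindle formation, read 5.43 and 5.35 on day 0, 8.32 and 8.14 on day 4, 5.09 and 5.12 on day 9, and 5.19 and 4.98 with KU55933. The day 4 arrays were high and the others lay together, a rise of 2.84 ± 0.12. Tpx2, which activates Aurka on microtubules, rose by 3.53, Hmmr by 3.83 as a lower bound, Ckap2 by 3.29, Dlgap5 by 3.27, Aspm, which works at spindle poles, by 3.16, and Nusap1, which bundles microtubules, by 2.84.

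Of the 6 genes of anaphase onset and sister cohesion 5 rose, and Pttg1 was the exception among all 55 genes. Cdc20, an activator of the anaphase-promoting complex, read 5.75 and 6.10 on day 0, 8.92 and 8.79 on day 4, 5.20 and 5.48 on day 9, and 5.58 and 5.35 with KU55933. Ube2c, the ubiquitin-conjugating enzyme of that complex, read 5.63 and 6.10 on day 0, 9.28 and 9.17 on day 4, 5.71 and 5.75 on day 9, and 5.75 and 5.44 with KU55933. Espl1 (separase), which cuts cohesin, read 4.37 and 5.26 on day 0, 6.79 and 6.53 on day 4, 4.14 and 3.87 on day 9, and 4.57 and 4.42 with KU55933. The 3 genes were high on both day 4 arrays, by 2.93, 3.36 and 1.85, and the day 0 arrays of Espl1 lay far apart. Pttg1 (securin), the inhibitor of separase, read 6.01 and 6.41 on day 0, 5.78 and 5.85 on day 4, 5.98 and 5.85 on day 9, and 6.10 and 6.12 with KU55933. Its day 4 arrays lay just below day 0, a difference of -0.40 ± 0.15 (adjusted p = 0.0468). The gene was no longer called once day 0 replicate 2 was left out (adjusted p = 0.168), or day 4 replicate 1 (adjusted p = 0.181) or 2 (adjusted p = 0.111), or either array of day 9 (adjusted p = 0.0635) or KU55933 (adjusted p = 0.0732). Over the alternatives its adjusted p ran from 0.00237 to 0.181. Sgo1, which protects cohesin at centromeres, rose by 3.72 as a lower bound, and Cdca5 (sororin), which stabilises cohesin, by 2.72.

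The 7 measured genes of chromosome structure rose with a median of 2.56. Mki67, whose protein coats mitotic chromosomes and is the Ki-67 proliferation marker, read 8.22 and 8.28 on day 0, 10.66 and 10.54 on day 4, 6.88 and 6.61 on day 9, and 7.53 and 7.26 with KU55933. Top2a, the topoisomerase that untangles sister DNA, read 7.08 and 6.99 on day 0, 9.91 and 9.84 on day 4, 6.18 and 6.16 on day 9, and 6.94 and 6.97 with KU55933. Smc4, a core subunit of both condensins, read 8.61 and 8.54 on day 0, 9.88 and 9.88 on day 4, 8.48 and 8.65 on day 9, and 8.36 and 8.37 with KU55933. Mki67 and Top2a were high on day 4 and below day 0 on day 9, and Smc4 was high on day 4 with overlapping day 0 and day 9 arrays. Smc4 rose by 1.31 ± 0.11, the smallest rise after Cdc25b, against 2.35 for Mki67 and 2.84 for Top2a. The condensin subunits Smc2, Ncaph and Ncapd2 rose by 2.56, 3.76 and 1.97. Cdca2, which brings a phosphatase to chromosomes at mitotic exit, read 4.80 and 4.72 on day 0, 7.72 and 7.72 on day 4, 5.47 and 5.41 on day 9, and 5.65 and 5.38 with KU55933 and was above day 0 in every other group.

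The 4 cytokinesis genes rose with a median of 3.31. Anln (anillin), a scaffold of the contractile ring, read 4.45 and 4.73 on day 0, 7.82 and 7.72 on day 4, 3.93 and 3.51 on day 9, and 4.37 and 4.25 with KU55933. Ect2, the exchange factor that activates RhoA at the division plane, read 5.38 and 6.14 on day 0, 9.59 and 9.47 on day 4, 6.21 and 6.30 on day 9, and 6.78 and 6.62 with KU55933. Prc1, which bundles the central spindle, read 5.31 and 5.14 on day 0, 8.66 and 8.68 on day 4, 5.04 and 5.16 on day 9, and 5.47 and 5.46 with KU55933. Racgap1, a subunit of centralspindlin, read 6.75 and 6.62 on day 0, 9.00 and 8.96 on day 4, 6.33 and 6.38 on day 9, and 6.62 and 6.27 with KU55933. The day 4 rises were 3.18, 3.77, 3.44 and 2.29. After day 4 the genes parted, since Anln lay below both day 0 arrays on day 9, while both day 9 arrays of Ect2 lay above day 0 without a call (difference 0.49 ± 0.23, adjusted p = 0.0984).

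**Figure D3:**
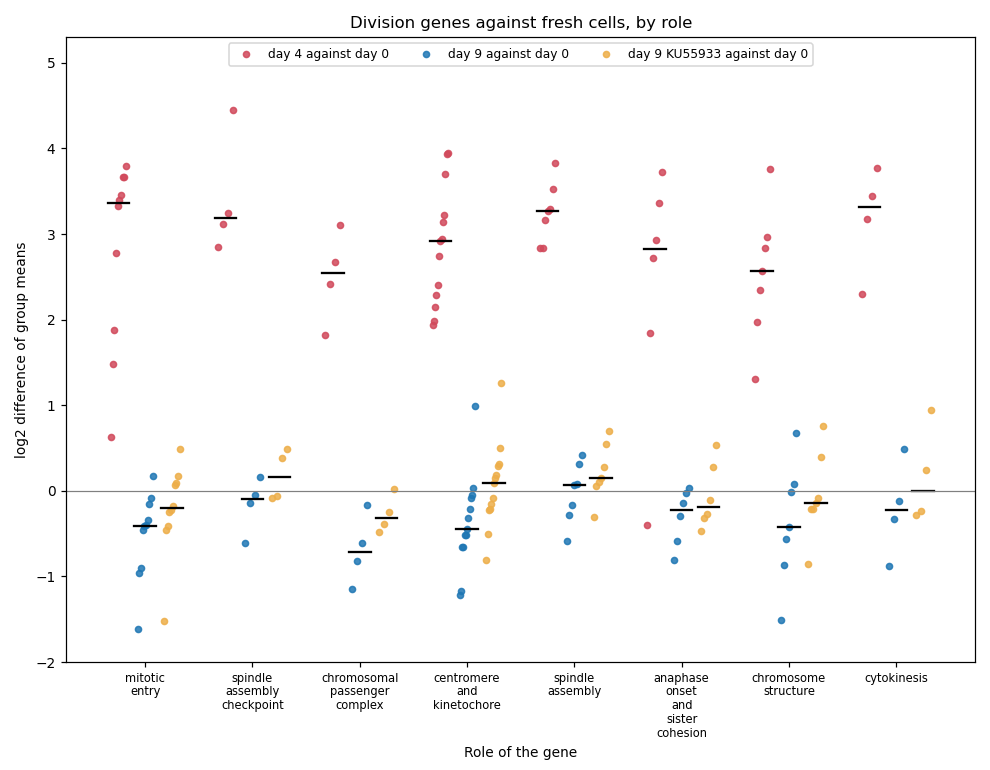
Log2 difference from day 0 of each of the 55 division genes (points) at day 4, at day 9 and at day 9 with KU55933, by role, with the median of each role as a bar. Medians at day 4 run from 2.54 to 3.36 and the later groups lie around 0.

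Between day 4 and day 9 the rise was lost. Of the 55 genes 54 fell and 0 rose by limma, where 15.6% of all tested genes were called lower and 12.2% higher, and at an unadjusted p below 0.05 the counts were also 54 and 0. The median difference was -3.28, against -0.01 over all tested genes, and 54 genes had both day 9 arrays below both day 4 arrays (34.7% of all tested genes did). For 0 genes did they lie above (33.1% of all tested genes). The largest measured falls were 4.50 ± 0.11 for Bub1, 4.28 ± 0.11 for Ccna2 and 4.27 ± 0.19 for Nuf2, and that of Birc5, 4.25 ± 0.17, is a lower bound that could rank above them, as are those of Cdc25c, Cenpk and Hmmr. The smallest were 1.32 ± 0.11 for Smc4 and 1.89 ± 0.20 for Cdca3, and Pttg1 was not called at 0.10 ± 0.15 (adjusted p = 0.677).

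Against day 0, the day 9 cells had 21 division genes lower, 3 higher and 31 not called, where 22.0% of all tested genes were called lower and 36.0% higher. The median difference was -0.31, against 0.09 over all tested genes. Arrays did not overlap downward for 30 genes and upward for 7, against 31.4% and 44.2% of all tested genes. The largest falls were 1.61 ± 0.17 for Cdc25b (adjusted p = 9.1e-05), 1.51 ± 0.14 for Mki67 (adjusted p = 5.74e-05) and 1.22 ± 0.19 for Knl1, beside the lower bound of 1.15 for Birc5. Cenpn rose by 0.99, Cdca2 by 0.68 ± 0.12 (adjusted p = 0.002) and Ckap2 by 0.42 ± 0.14 (adjusted p = 0.0322). By role, falls were called for 4 of 10 entry genes, 1 of 4 checkpoint genes, 3 of 4 passenger complex genes, 6 of 13 kinetochore genes, 1 of 7 spindle assembly genes, 2 of 6 genes of anaphase onset and cohesion, 3 of 7 genes of chromosome structure and 1 of 4 cytokinesis genes, and the roles were not compared by a test.

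Of these 24 calls 15 held under every alternative, and 9 were lost when 1 array was left out, namely Cdc20, Cenpe, Cenph, Ckap2, Espl1, Ndc80, Plk1, Spc24 and Ttk. Without day 9 replicate 1 the adjusted p of these 9 genes was 0.0531 (Ttk) to 0.118 (Ckap2), and without day 9 replicate 2 it was 0.0826 to 0.197 for Ckap2, Espl1, Ndc80, Plk1 and Ttk. Without day 0 replicate 2 it was 0.0635 to 0.212 for Cdc20, Ckap2, Espl1, Ndc80, Spc24 and Ttk, and without day 0 replicate 1 it was 0.0584 for Cenph and 0.0536 for Spc24. Leaving out either day 4 array ended the calls of Ckap2, Ndc80 and Ttk (0.052 to 0.0742), and leaving out either KU55933 array those of Espl1 and Ndc80 (0.0517 and 0.0546).

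With KU55933 most division genes were slightly higher at day 9 than without it, and few of these differences passed the test. The difference was positive for 48 of the 55 genes, with a median of 0.32 against 0.02 over all tested genes. The arrays did not overlap upward for 39 genes and downward for 2, Smc4 and Cenpf, against 26.7% and 21.3% of all tested genes. By limma 2 genes were called higher, where 0.750% of all tested genes were, and 0 lower, where 0.236% were. At an unadjusted p below 0.05 the counts were 24 and 0. The share of all tested genes at that threshold was not computed, so these 2 counts have no background beside them. With each array centred on the median of its tested genes, the differences shifted by -0.07 and their median was 0.25. The arrays of 34 genes then did not overlap upward, against 18% of all tested genes.

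The 2 called genes were Top2a and Ccna2, whose array values are given above. Both KU55933 arrays of each gene lay above both day 9 arrays. Top2a was higher by 0.79 ± 0.10 (adjusted p = 0.0239) and Ccna2 by 0.71 ± 0.11 (adjusted p = 0.0355). Both levels stood far below those of day 4. Against day 0 they differed by -0.08 (adjusted p = 0.539) and -0.24 (adjusted p = 0.0854), and neither gene was called. Neither call of KU55933 against day 9 held throughout. Leaving out either day 4 array gave an adjusted p of 0.0828 for Top2a and 0.104 for Ccna2. Without day 9 replicate 1 or 2 it was 0.183 or 0.120 for Top2a and 0.255 or 0.117 for Ccna2. Without KU55933 replicate 1 or 2 it was 0.193 or 0.213 for Top2a and 0.252 or 0.215 for Ccna2.

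The largest differences without a call were 0.94 ± 0.33 for Spc24 (adjusted p = 0.295) and 0.84 ± 0.17 for Cenph (adjusted p = 0.0834), and Birc5, Knl1 and Mki67 stood at 0.76, 0.72 and 0.65, the first as a lower bound. Cenph, a kinetochore subunit, read 4.76 and 4.46 on day 0, 7.48 and 7.23 on day 4, 3.78 and 4.13 on day 9, and 4.86 and 4.72 with KU55933. Its KU55933 arrays lay near day 0 and its day 9 arrays below. The lowest differences were -0.20 for Smc4, -0.16 for Cenpf and -0.13 for Ube2c. Cenpf, a large kinetochore protein, read 5.22 and 5.41 on day 0, 7.49 and 7.45 on day 4, 4.74 and 4.59 on day 9, and 4.43 and 4.58 with KU55933, lower in all 4 day 9 samples than on day 0. KU55933 replicate 1 read higher than replicate 2 for most genes, and replicate 2 was the higher for 13 of 55.

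**Figure D4:**
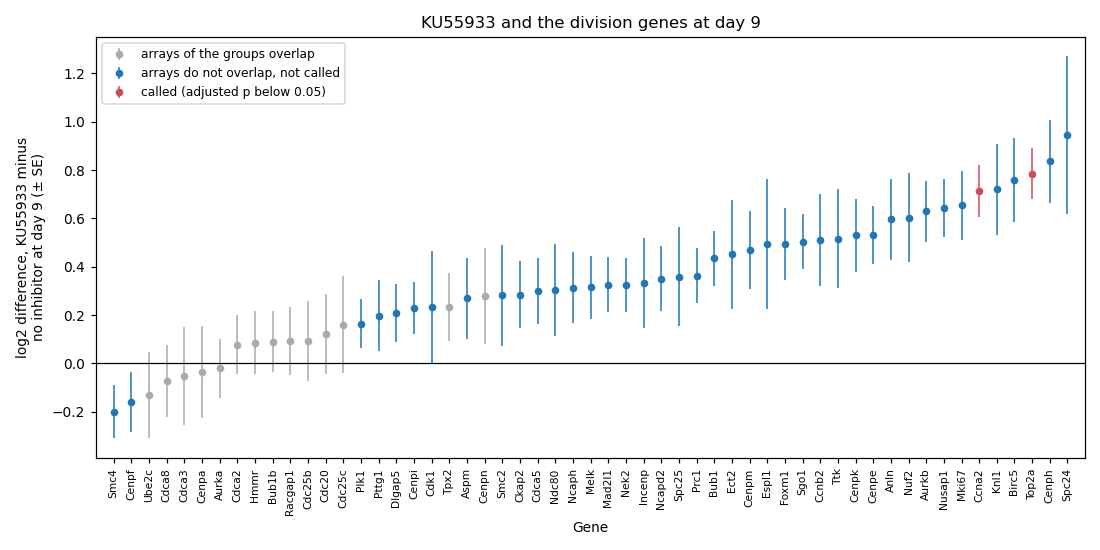
Log2 difference between day 9 with and without KU55933 (± SE) for each of the 55 division genes, ordered by size. Points are red where called (Top2a and Ccna2), blue where the arrays of the groups do not overlap and grey where they do, and 48 of 55 lie above 0.

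Against day 4, the KU55933 cells had 54 division genes lower and 0 higher by limma, where 13.7% and 12.3% of all tested genes were called, with the same counts at an unadjusted p below 0.05. The median difference was -2.93 against 0.00 over all tested genes, and the arrays of 54 genes did not overlap downward (33.3% of all tested genes). The falls ran from 4.07 ± 0.11 for Bub1, 3.98 ± 0.10 for Plk1 and, as a lower bound, 3.68 ± 0.13 for Hmmr to 1.51 ± 0.11 for Smc4, 1.90 ± 0.16 for Cenpm and 1.94 ± 0.20 for Cdca3. Pttg1, the exception, stood at 0.30 ± 0.15 (adjusted p = 0.194) and was called higher when either day 0 array, or both, was left out. This comparison shares its day 4 arrays with the preceding ones and its KU55933 arrays with the last.

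Against day 0, the KU55933 cells had 10 division genes higher, 5 lower and 40 not called, where 37.3% and 21.9% of all tested genes were called. The median difference was -0.08 against 0.11 over all tested genes, and the arrays did not overlap upward for 20 genes and downward for 16 (45.3% and 31.8% of all tested genes). The higher genes were led by Cenpn at 1.26, Ect2 at 0.94 ± 0.23 (adjusted p = 0.00772) and Cdca2 at 0.76 ± 0.12 (adjusted p = 0.00108), followed by Ckap2, Tpx2, Sgo1, Cenpm, Mad2l1, Melk and Bub1 at 0.39 to 0.70. The lower ones were Cdc25b at -1.52 ± 0.17, Mki67 at -0.86 ± 0.14, Cenpf at -0.81 ± 0.12, Cdc20 at -0.46 ± 0.17 and Foxm1 at -0.41 ± 0.15. With arrays centred on the median of their tested genes, which shifts these differences by -0.30, the counts were 3 higher and 22 lower. Without KU55933 replicate 1 the number higher was 6, with Bub1, Cenpm, Melk and Tpx2 no longer called (adjusted p 0.0777 to 0.179). Cenpm also lost its call without day 0 replicate 1 (adjusted p = 0.11). The number lower was 9 without day 0 replicate 1, and 3 without either day 4 array or without KU55933 replicate 2. In these 3 cases Cdc20 (adjusted p 0.0642 to 0.207) and Foxm1 (adjusted p 0.0676 to 0.217) lost their calls. They also did so without day 0 replicate 2 (0.177 and 0.174) and without KU55933 replicate 1 (0.0573 and 0.0598), and Foxm1 without either day 9 array (0.0551).

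Other genes of the same pathways also rose at day 4, where 37.5% of all tested genes were called higher and 22.4% lower, and the 2 risen genes named from a list with over 5 of them are those with the lowest adjusted p. All 12 mitotic kinesins of the separate list, motors of the spindle, rose, among them Kif11 at 3.69 and Kif20a at 3.65, with a median of 2.69. All 27 tested genes of the G1/S transition and DNA replication rose with a median of 2.33, among them Rrm1 at 3.44 and Prim1 at 3.22, and centring left 26 called. Further kinetochore and checkpoint genes rose in 21 of 22 cases, with Kntc1 at 3.13 and Ska3 at 3.34. The 3 subunits particular to condensin II rose, Ncapg2 by 3.48, Ncaph2 by 1.00 and Ncapd3 by 0.70. Centriole and pericentriolar genes rose in 7 of 9 cases, Stil by 4.11 and Plk4, the kinase of centriole duplication, by 2.97.

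The remaining lists also held members that fell or were not called. Of 17 genes of the anaphase-promoting complex and its regulators 14 rose, among them its inhibitor Fbxo5 at 2.84 and the subunit Cdc23 at 1.76, and Anapc13 fell by 0.39. Of 12 DREAM and MYB-MuvB genes 9 rose, Mybl2 by 2.68 and Tfdp1 by 2.18, and Tfdp2 fell by 0.35. Of 13 cohesin genes 8 rose, among them Esco2 at 2.91 and Wapl at 1.08, and Mau2 and Nipbl fell by 0.53 and 0.45. Of 12 abscission and ESCRT genes 5 rose, with Cep55 at 3.58, Cit at 1.95, Pdcd6ip at 1.71, Tsg101 at 0.96 and Spast at 0.75, and Ist1 fell by 0.40. That count is close to the 37.5% of all tested genes called higher. With centred arrays the counts of this list were 4 higher and 3 lower, and its median turned from 0.22 to -0.13. Of 11 further entry regulators 9 rose, among them Mastl, which restrains the phosphatase that opposes Cdk1, at 2.92 and Cdc25a at 2.08.

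The brakes on mitotic entry moved in both directions after day 4, with 3 of the 6 tested genes called lower at day 9 than at day 4 and 2 called higher. Of all tested genes 15.6% were called lower and 12.2% higher between these days. At day 4 Wee1, which inhibits Cdk1, rose by 3.25 ± 0.23, the checkpoint kinases Chek1 and Chek2 by 2.82 ± 0.16 and 1.46 ± 0.19, and the inhibitor Cdkn1a (p21) by 2.41 ± 0.10, whereas Cdkn1b (p27) fell by 1.01 ± 0.14. From day 4 to day 9 Cdkn1a and Cdkn1b rose by 1.45 ± 0.10 (adjusted p = 4.15e-05) and 0.99 ± 0.14 (adjusted p = 0.00157), and Chek1, Wee1 and Chek2 fell by 2.56, 1.21 and 1.19. At day 9 Cdkn1a stood 3.86 ± 0.10 above day 0 and Wee1 2.04 ± 0.23 above it. In the comparison of KU55933 with day 9, 0 of these 6 tested genes was called by limma. The called genes of the pathway lists in that comparison were Kif11 at 0.68 ± 0.10 (adjusted p = 0.0344), Kntc1 at 0.80 ± 0.14 (adjusted p = 0.0489), Mcm5 at 0.86 ± 0.13 (adjusted p = 0.0365) and Ncapg2 at 0.68 ± 0.11 (adjusted p = 0.042). Under centring and under quantile normalization none of these 4 was called.

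Markers of other bone marrow cells moved between the same groups. Of all tested genes 37.5% were called higher and 22.4% lower at day 4 than at day 0. From day 4 to day 9, 15.6% were called lower and 12.2% higher. Of 12 tested neutrophil and precursor markers 12 were higher on day 4 than on day 0 and 10 were lower on day 9 than on day 4. Of the 13 listed, 12 reached the array median on each day 4 array, 8 and 7 on the day 0 arrays, and 6 and 5 on the day 9 arrays. For a marker that passed the filter only through the day 4 arrays, a rise at day 4 and a fall after it were built in. The summed linear signal of the neutrophil and precursor markers was 219 to 259 on day 0, 995 to 1007 on day 4, 2062 to 2158 on day 9 and 2007 to 2115 with KU55933. At day 9 Ctsg made up most of it after a rise of 4.49 from day 4. Of 7 macrophage markers 2 rose and 4 fell at day 4 and 7 fell from day 4 to day 9, with sums of 2301 to 2466, 1371 to 1566, 166 to 175 and 169 to 175. B lineage markers fell at day 4 in 5 of 5 tested cases, with sums of 903 to 1037, 264 to 399, 94.5 to 95.0 and 87.3 to 89.7.

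At day 4, 22.4% of all tested genes were called lower and 37.5% higher. Megakaryocyte markers fell there in 5 of 5 cases and stem and progenitor markers in 4 of 6. Erythroid markers fell in 2 of 3 cases, dendritic cell markers in 2 of 2 and T cell markers in 5 of 8, with 2 of 8 higher. Mast cell and basophil markers rose in 2 of 4 cases. In the comparison of KU55933 with day 9, the called markers of other cells were Ly6g of neutrophils, higher by 1.77, and Lyz2 of macrophages, lower by 0.68. No T cell marker was called there. Both KU55933 arrays lay above both day 9 arrays for 5 of 8 T cell markers, against 26.7% of all tested genes. The summed signal of the T cell markers was 610 to 743 on day 0, 663 to 721 on day 4, 1021 to 1055 on day 9 and 1186 to 1329 with KU55933. The sum of the mast cell and basophil markers was 235 to 306, 767 to 807, 803 to 821 and 435 to 467 in the same order, with 0 of 4 called by limma between KU55933 and day 9 and 2 lower at an unadjusted p below 0.05. NK cell markers rose in 5 of 12 cases and fell in 3 at day 4, with summed signals of 12599 to 13487 on day 0 and 19763 to 20479 on the other 6 arrays. The part of these cells in the division gene results was not tested.

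**Figure D5:**
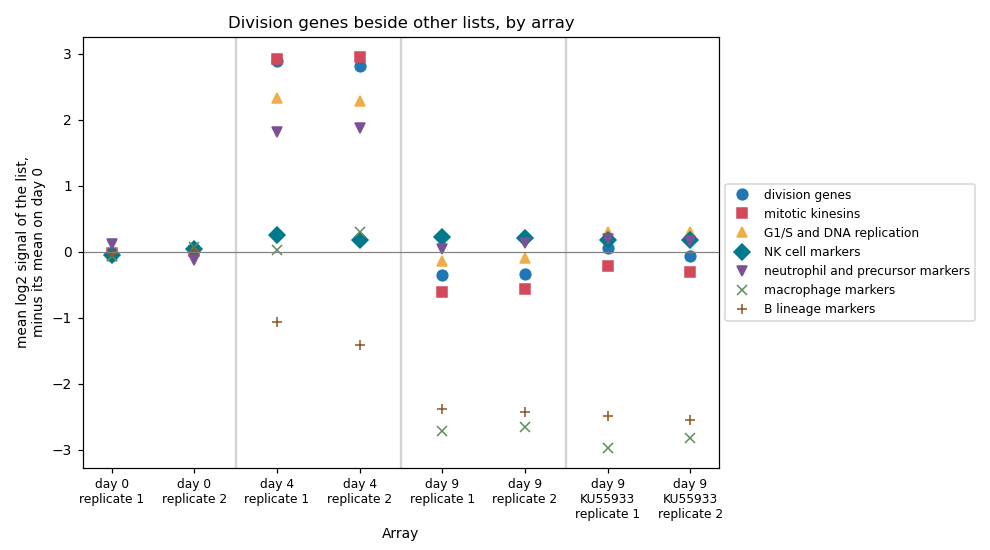
Mean log2 signal of the 55 division genes and of 6 other lists on each of the 8 arrays, minus each list's mean on day 0. Division genes, kinesins, replication genes and neutrophil markers are high on both day 4 arrays, while B lineage and macrophage markers are low on the day 9 arrays and lowest on those with KU55933.

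The authors' deposited table of clusters that differ between the conditions holds 54 of the 55 division genes, all except Pttg1. It holds 11036 of the 41345 clusters on the array, and its share of the genes tested here was not computed. Its averages come from the same 8 arrays, so the table is not independent of the results above. In the authors' deposited table the false discovery rate p-values of these genes run from 0.000233 to 0.035991, and day 4 has the highest average for all 54.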

How the data were processed

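The arrays measured RNA amplified in a single round and labelled with biotin. Per the submitters' processing notes, the submitters used RMA, and the authors deposited its log2 signals for 41345 transcript clusters. The authors' deposited table of group averages holds 11036 clusters with p-values, plain and as false discovery rates, from the Transcriptome Analysis Console, and was read only as a comparison. The sources used here give neither tool versions nor a genome build for the array. Samples were grouped by their labels, which name no batch.

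Gene symbols came from the supplied probe annotation, in which 23521 clusters name 1 symbol, 1820 several and 16004 none. A gene was represented by the cluster of its own with the highest mean over the 8 arrays. Genes at or above the array median on at least 2 arrays were tested (13998 of 22180). A model of group means over the 8 arrays was fitted by limma's lmFit and eBayes (limma 3.58.1, R 4.3.3) with 4 residual and 3.69 prior degrees of freedom, and 6 comparisons were made, each adjusted by Benjamini-Hochberg. The code was tested on simulated data. The number of arrays limits the precision of every value. For counts at an unadjusted p below 0.05, no share of all tested genes was computed. Levels of the division genes were not compared with each other, because each gene is read by its own probes. The summed marker signals do add levels of different genes, so the brightest genes weigh most in them. A fold is called a lower bound where a group lay below the array median. This is a convention, because the array median is the cut-off of the filter and not a measured detection limit.

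Lists comprised 11 pathway lists and 10 marker lists. The members, lists and named genes were chosen with earlier results of these data known, and the lists of pathways and markers are described by counts alone. A fixed set of core genes is given by array, and in each comparison the 3 largest and 3 smallest differences and the genes on a side held by 5 or fewer are named. From a pathway list the 2 called genes with the lowest adjusted p each way and those on a side held by 5 or fewer are named, here for day 4 against day 0 and for KU55933 against day 9. Cenph, Cenpf, Cdca2 and Spc24 were given by array, the brakes on mitotic entry were followed to day 9, and the markers Ctsg, Ly6g and Lyz2 were named, after their values were seen. Alternatives were other filters, array centring, quantile normalization, the mean of a gene's clusters and a mean-variance trend. Others were only the 4 arrays compared, a replicate block and each array left out. Centring subtracted from each array the median of its 13998 tested genes, not the array median over all clusters that the filter used. A fit without both day 0 arrays was chosen after seeing the data. Promoter sequences are from RefSeq (GRCm38.p6). Figures were drawn with matplotlib 3.10.9 in Python 3.11.15.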

Additional observations from a re-analysis of the deposited data

How the results depend on the processing

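The falls from day 4 to day 9, with and without KU55933, were called for 54 division genes under every alternative, and the rise at day 4 for 53 or 54. The counts near the threshold moved more. For KU55933 against day 9 the 2 genes called higher became 0 without a dim filter, 0 with only the 4 arrays compared, 1 with centred arrays, 1 with quantile normalization, 6 with a mean-variance trend, 8 with the filter at percentile 75, and 4 without both day 0 arrays, an alternative chosen after seeing the data. Leaving out 1 array gave 0 to 4. The 1 gene called lower at day 4, Pttg1, was called in 0 cases without a filter or with only the 4 arrays, and leaving out 1 array gave 0 to 1. The 21 genes lower at day 9 than at day 0 became 33 with centred arrays, and leaving out 1 array gave 14 to 23. For KU55933 against day 0 the 10 genes higher became 3 with centred arrays and 6 to 12 when 1 array was left out. The 5 lower became 3 without a filter, 9 at percentile 75, 22 with centred arrays and 12 with quantile normalization, and 3 to 9 when 1 array was left out. For KU55933 against day 4 the 0 genes higher became 1 without both day 0 arrays and 0 to 1 when 1 array was left out. Centring shifts every difference of a comparison alike, by -0.35 for day 4 and -0.23 for day 9 against day 0, by -0.30 for KU55933 against day 0 and by 0.12 for day 9 against day 4. A fit that keeps 1 array of a group takes that array to vary like the other groups. The cause of the other moves was not tested.

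Whether samples with the same replicate number belong together is not given in the labels used here. The difference of replicate 1 minus replicate 2 correlated between groups across the tested genes by -0.03 to 0.05. No shift shared by replicate number was thus seen, which cannot decide whether the samples are paired. With the replicate number as a block, 0 genes were called higher for KU55933 against day 9 and 0 lower at day 4, and the other counts stayed within 1.5 times.

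Among the 55 division genes 0 calls changed sign. Among the pathway and marker lists some differences that were called in the main or the other setting did, and the value of each under that alternative follows. At day 4 against day 0 centring gave -0.035 for Cenpo, -0.055 for Rbl2, -0.33 for Chmp4b, -0.34 for Klre1 and -0.32 for Myb. Quantile normalization gave -0.40 for Esco1, -0.32 for Lin52, -0.065 for Rbl2, -0.36 for Chmp4b, -0.43 for Klre1 and -0.41 for Myb. At day 9 against day 0 quantile normalization gave -0.051 for Anapc5, -0.29 for Klre1 and -0.013 for Myb. With KU55933 against day 0 it gave -0.39 for Cdkn1b and -0.27 for Chmp4b. Leaving out 1 array moved Anapc7 against day 0 from -0.30 to 0.41 at day 4, from -0.34 to 0.38 at day 9 and from -0.35 to 0.37 with KU55933, the lower value without day 0 replicate 2 and the higher without replicate 1. Likewise Rrm2 at day 9 ran from -0.34 to 0.33, the latter without day 0 replicate 2.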
